A study of Danio rerio with 4 samples.

Results

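The anti-myc background of wild-type zebrafish embryos was described from every interval of the wild-type peak list, 398 of the 4395 peaks in the series. The other 3997 peaks belong to the list of embryos that carried the Tg(hsp70l:tbx6Myc)v8 transgene, in which a heat-shock promoter (hsp70l) drives myc-tagged tbx6 in the whole embryo. The wild-type animals were of the strain labelled Weslyan University wild type and had no tagged protein. Whole embryos of both kinds were precipitated with the same Abcam antibody against myc. They had grown at 28.5 °C until 10S by the labels and then spent 1 h at 37 °C, so the wild-type embryos received the heat shock too. The wild-type list stands for 1 ChIP library and the Tbx6myc list for 2 merged ChIP libraries. There was thus no replicate of either list, the spread between libraries is unknown, and no difference below was tested. The total number of reads behind the lists is unknown.

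A ChIP on embryos without the tag shows which stretches of chromatin an antibody and the library protocol bring down when the tagged protein is absent. Such background intervals are commonly found where reads pile up for reasons other than binding, for example at repeats that are collapsed in a genome assembly. Zebrafish chromosomes are numbered, and pieces of assembly that could not be ordered onto one are kept as unplaced scaffolds, which are often short and rich in repeats. On Zv9, the build of these files, they are named Zv9_NA or Zv9_scaffold followed by a number. Tbx6, the protein mapped in the transgenic embryos, belongs to the T-box family of transcription factors and acts in the tissue from which somites form.

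Unplaced scaffolds held 158 wild-type peaks and the 25 numbered chromosomes held 240. Of the scaffold peaks, 148 lay on sequences named Zv9_NA and 10 on sequences named Zv9_scaffold. The scaffold share was 39.7% (95% Wilson interval 35.0 to 44.6%), where intervals cover counting error only. Wild-type peaks covered 0.171 Mb of the scaffolds and 0.195 Mb of the chromosomes. The Tbx6myc list had 5.23% of its peaks (4.58 to 5.96%) on scaffolds.

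The share on scaffolds was higher among strong wild-type peaks. Each peak has a score, the authors' own value, which is −log10 of a p-value multiplied by 10, so a score of 100 stands for a smaller p-value than a score of 93. Of the 20 highest scores, 17 were on scaffolds. Among the 100 highest the number was 71, and among all 398 it was 158. From a score of 300 up, 19 of 22 peaks were on scaffolds, against 19 of 92 peaks below a score of 100. The scores cannot be compared with those of the Tbx6myc list, which are averages from merged libraries.

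Scaffold peaks were also the wider and higher-scoring of both kinds. Median width came to 973 bp on scaffolds (95% order-statistic interval of this median 879 to 1073 bp, quartiles 704 and 1346 bp), against 781.5 bp on chromosomes (739 to 821 bp, quartiles 510 and 972 bp). More than 1 kb was spanned by 74 scaffold peaks (46.8%) and by 58 chromosome peaks (24.2%). Median scores were 132 (interval 124 to 152) on scaffolds and 104 (101 to 108) on chromosomes. A score of 200 or more was reached by 38 scaffold peaks and 16 chromosome peaks. The lowest scores of the 2 kinds were 93.2 and 93.05, so both reached the floor of the list. Within the Tbx6myc list, too, scaffold peaks were the wider (median 534 against 482 bp) and the higher in averaged score (median 212 against 189).

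**Figure D1:**
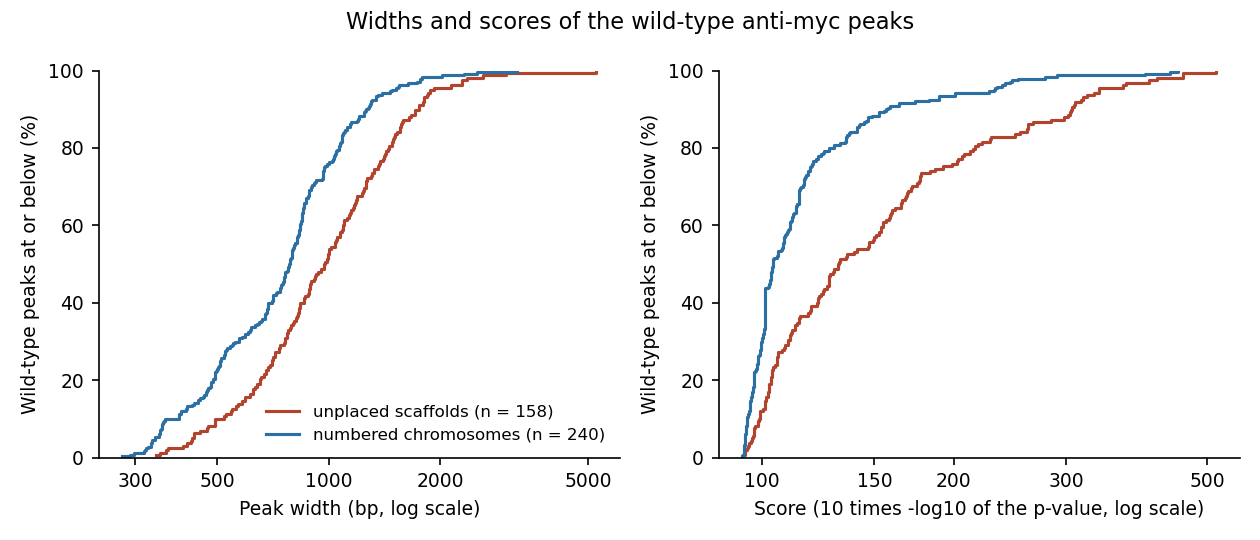
Cumulative share of wild-type peaks (y axis, %) by width in bp (left) and by score (right), both on log axes, for 158 peaks on unplaced scaffolds and 240 on numbered chromosomes. The scaffold curve lies to the right in both panels, with medians of 973 against 781.5 bp and 132 against 104.

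The highest-scoring scaffold peaks were intervals of more than 1 kb. The top score of 515.9 lay at 1090 to 2642 of Zv9_NA371, the only wild-type peak of that scaffold. The widest peak of the list, 5266 bp from 3889 to 9154 of Zv9_NA648, had a score of 458. It had a second strong neighbour at 11102 to 12580, with a score of 338. Zv9_NA219 followed with 457 at 58250 to 59726, again a single peak. Then came Zv9_NA343, with 417 at 19345 to 21953 and 373 at 14701 to 16453, and Zv9_NA640, with 405 at 48792 to 51078. Zv9_NA126 gave 369 at 50910 to 52229 and 338 at 46413 to 47659, and Zv9_NA496 gave 332 at 12581 to 14945. These 10 peaks came from 7 scaffolds, so strong scaffold peaks shared sequences.

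On chromosomes the scores fell off faster with rank. The strongest were 450 at 14138457 to 14140213 of chromosome 2, 436 at 12341918 to 12343401 of chromosome 24 and 398 at 49942556 to 49944188 of chromosome 12. No other chromosome peak passed 300. Next were 291 at 12729467 to 12731783 of chromosome 11, 278 at 11733242 to 11734699 of chromosome 24 and 252 at 48098498 to 48099837 of chromosome 3. The rest of the 10 scored 247 at 14545940 to 14546406 of chromosome 2, 245 at 12634473 to 12635756 of chromosome 23, 241 at 23280573 to 23281770 of chromosome 22 and 238 at 28541365 to 28543387 of chromosome 25. The second one on chromosome 2 was only 467 bp wide, and the others spanned 1198 to 2317 bp.

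Width alone did not set the score. After the Zv9_NA648 interval, the widest scaffold peaks were 3007 bp at 2163 to 5169 of Zv9_NA300 (score 132), 2609 bp on Zv9_NA343, 2365 bp on Zv9_NA496 and 2287 bp on Zv9_NA640. The widest chromosome peak, 3228 bp at 35423 to 38650 of chromosome 18, scored 156. It was followed by 2508 bp at 61288563 to 61291070 of chromosome 4 (score 227), 2317 bp on chromosome 11, 2023 bp on chromosome 25 and 1786 bp at 29890928 to 29892713 of chromosome 18 (score 155). At the other end, the narrowest scaffold peaks were 341 bp on Zv9_NA647, 349 bp on Zv9_NA386 and 363 bp on Zv9_NA419. The narrowest chromosome peaks were 277 bp at 59894976 to 59895252 of chromosome 7, 291 bp at 32088273 to 32088563 of the same chromosome, and 297 bp at 33021131 to 33021427 of chromosome 6. The 277 bp peak scored 141, above the median of either kind. Across peaks, Spearman's rho between width and score was 0.62 on 158 scaffold peaks and 0.33 on 240 chromosome peaks, a description of points that share 1 library.

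Most wild-type scores lay on a small family of curves. Peak callers often score an interval by the Poisson probability of seeing more reads than a background rate predicts for its width. The formula behind the deposited score is not given in the sources used here. Scores were therefore compared with 10 times the negative log10 of the Poisson probability of more than n events, where n is a whole number. The expected number was a single rate times the width, with widths below a floor of 450 bp counted as 450 bp. Both the rate and the floor were chosen because they put most of these scores near a curve. With a rate of 0.00138 per bp (1.38 per kb), 338 of the 398 scores (84.9%) lay within 0.1 units of such a curve. Neighbouring curves were 8.32 to 15.3 units apart at the widths of these peaks. Of 2501 rates from 0.0005 to 0.003 per bp, this one put 170 of the 328 peaks of 500 bp or wider within 0.02 units. No rate more than 1e-05 away from it reached more than 13. The relation was found after the scores had been seen.

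Narrow peaks had a fixed set of scores. At widths up to 450 bp, the floor fitted to these scores, the score on a curve no longer changed with width, as if the expected number stayed at 0.621 there. The 48 peaks of 450 bp or less had 8 different scores between them. A score of 101.19 was shared by 25 of them, from 331 to 450 bp wide, of which 3 were on scaffolds and 22 on chromosomes. Another 10 had 114.06, 4 had 127.28 and 4 had 140.82. The curves for n of 10 and 11 give 101.24 and 114.12 at this width.

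**Figure D2:**
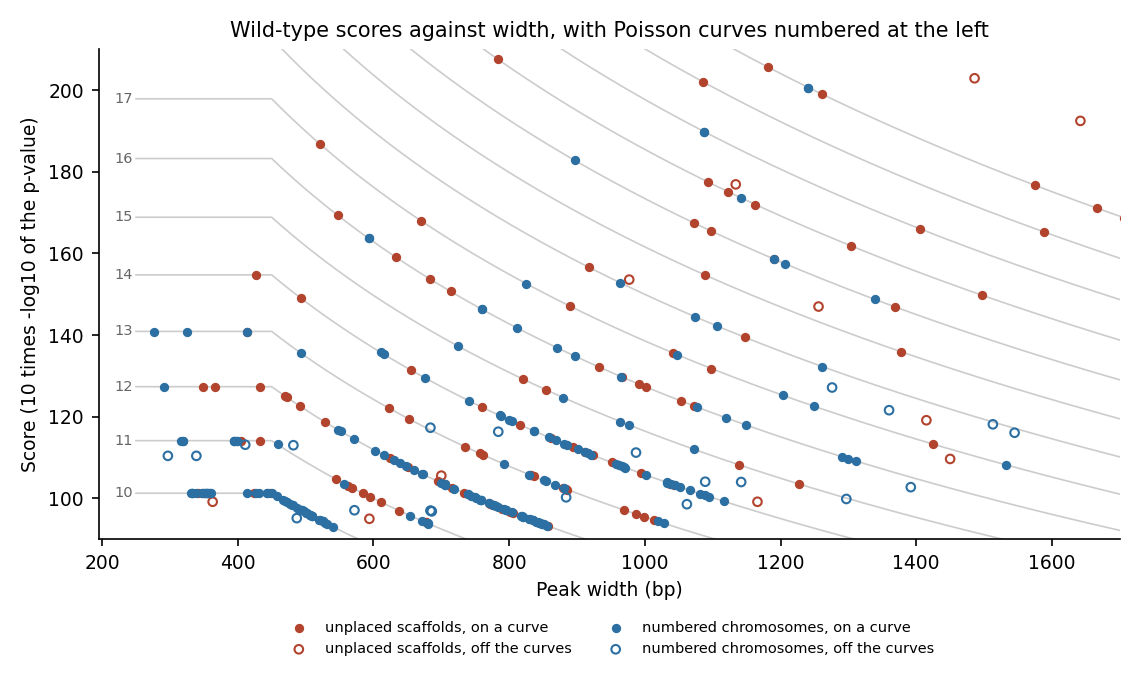
Score against width in bp for all but the strongest and widest wild-type peaks, with grey Poisson curves for a rate of 0.00138 per bp, numbered at the left by their whole number n. Filled points lie within 0.1 units of a curve and open points do not, in red for scaffolds and blue for chromosomes; the curves are flat up to 450 bp, and the points of the lowest curves end near a score of 93.

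The curves tied the widths of weak peaks to the floor of the list. The 53 peaks on the curve of n = 10 were 331 to 540 bp wide, and the widest of them, at 13448762 to 13449301 of chromosome 2, had the lowest score of the list, 93.05. On the curve of n = 11 the widest peak was 681 bp (score 93.8). For n = 12 it was 858 bp, at 34671 to 35528 of Zv9_NA329, with the second lowest score, 93.2. An 856 bp peak at 34931647 to 34932502 of chromosome 1, also with n = 12, had the third lowest, 93.3. The widest peak with n = 13 was 1028 bp (score 93.9). Within a curve the score falls as width grows, so at a given n the listed peaks were bounded in width.

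Chromosome peaks lay on lower curves than scaffold peaks. Since n was read from width and score, this restates that scaffold peaks were wider and higher-scoring. The median n was 14.5 on the 130 scaffold peaks that lay on a curve and 12 on the 208 chromosome peaks that did. An n of 12 or less was found for 36 scaffold peaks (27.7%, 20.7 to 35.9%) and 118 chromosome peaks (56.7%, 49.9 to 63.3%). An n above 20 was left for 37 scaffold peaks and 12 chromosome peaks. The highest within 0.1 units were 46, for the peak of score 457 on Zv9_NA219, and 43, for the peak of score 398 on chromosome 12. Within 0.2 units they were 52, for the peak of score 417 on Zv9_NA343, and 48, for the peak of score 450 on chromosome 2. Of the 158 scaffold peaks 28 were off the curves, and of the 240 chromosome peaks 32. These 60 peaks had a median width of 1376 bp, against 803 bp for the 338 on a curve, and they depend on the tolerance. Within 0.2 units 7 more peaks lay on a curve, among them the highest-scoring scaffold peak, on Zv9_NA371, and the highest-scoring chromosome peak, on chromosome 2. The second highest of each kind, on Zv9_NA648 and chromosome 24, stayed off, by 0.523 and 6.74 units. Neighbouring curves were 10.1 and 13.6 units apart at their widths.

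Even values of n were far more common than odd ones on chromosomes. The curves of n = 10, 12, 14 and 16 held 49, 55, 34 and 14 chromosome peaks, while those of n = 11, 13, 15 and 17 held 14, 12, 5 and 5. In all, 168 of 208 chromosome peaks had an even n (80.8%, 74.9 to 85.5%). On scaffolds 72 of 130 did (55.4%, 46.8 to 63.7%). With the probability written as n or more events, every n would be higher by 1 and even would read as odd, so the alternation, not the parity itself, is what the scores show. The alternation was noticed in these values and was not tested.

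**Figure D3:**
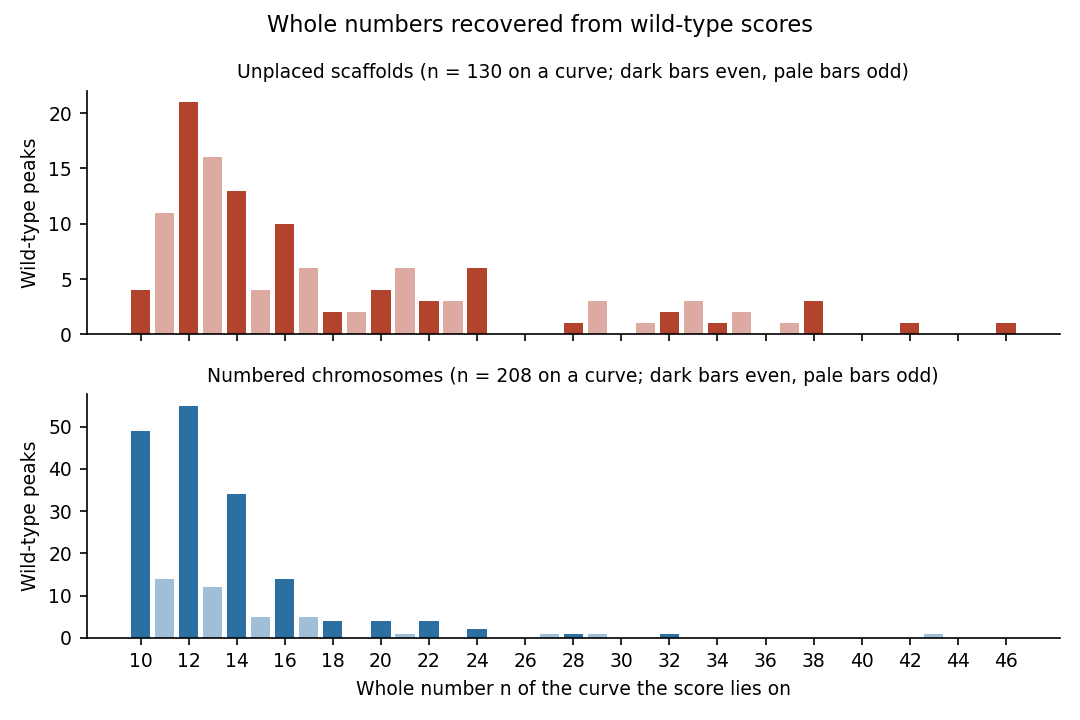
Number of wild-type peaks (y axis) by the whole number n of the curve their score lies on (x axis), for 130 peaks on unplaced scaffolds (top) and 208 on numbered chromosomes (bottom). Dark bars are even n and pale bars odd n; on chromosomes the bars alternate, with 49, 14, 55, 12, 34 and 5 peaks from n = 10 to n = 15.

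Repeated peaks of equal width and equal score numbered 62, in 28 pairs and 2 triplets. Of these peaks 8 were on scaffolds (5.06% of the scaffold peaks) and 54 on chromosomes (22.5% of the chromosome peaks). Only chromosomes were involved in 23 of the 30 sets, only scaffolds in 1 and both kinds in 6. All 62 peaks lay on a curve, where width and n together fix the score. In 7 of the 30 sets the width was at or under the floor of 450 bp, where n alone fixes it. Chromosome peaks were narrower and on lower curves, and how many ties would arise by coincidence was not tested. Among the 79 pairs of peaks with the same width, 68 had both members on a curve. In 34 of these n was equal and so was the score, and in the other 34 n differed. Since n was itself read from width and score, this split restates which scores were equal. None of the 11 remaining pairs had equal scores. Of the 30 tied sets 24 were below a score of 120 and 22 at an n of 12 or less. Chromosome peaks as a whole, which made up most tied peaks, were also mostly low. Their upper score quartile was 119, and 118 of the 208 on a curve (56.7%) had an n of 12 or less.

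The 5 highest-scoring sets were 2 on chromosomes 7 and 21, 1 on chromosome 16, 1 shared by chromosome 6 and Zv9_NA349 and 1 shared by chromosomes 4 and 25. On chromosome 7 a 1087 bp peak of score 190 at 69720254 to 69721340 lay 633 bp before a 1241 bp peak of score 201 at 69721974 to 69723214. On chromosome 21 the same widths, scores and gap were found at 20475815 to 20476901 and at 20477535 to 20478775. Neighbouring peaks within 10 kb formed 84 pairs. This was the only such arrangement that recurred on another sequence with both widths unchanged. In another 8 matches, each between 2 arrangements, the start-to-start spacing was within 5 bp but the widths differed. How many such matches would arise by coincidence was not tested. On chromosome 16 both 593 bp peaks scored 164, at 11041985 to 11042577 and 11176839 to 11177431. The set of chromosome 6 and Zv9_NA349 was 1191 bp wide with a score of 159, at 42240035 to 42241225 and 19554 to 20744. The set of chromosomes 4 and 25 was 760 bp wide with a score of 146, at 46217092 to 46217851 and 12691674 to 12692433.

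Other sets were weaker. One triplet of 354 bp and score 101.19 lay on chromosome 7 at 51720845 to 51721198 and 51721918 to 51722271, which are 719 bp apart, and on chromosome 12 at 37391058 to 37391411. The other, 776 bp with a score of 98.4, lay at 33391584 to 33392359 of chromosome 9, 39125608 to 39126383 of chromosome 10 and 6876 to 7651 of Zv9_NA29. Only the set on chromosome 16 and the first triplet had members on the same sequence. Counted by peak, 10.6% of the whole wild-type list met a Tbx6myc peak. On chromosomes, where 54 of the 62 tied peaks lay, 4.17% did. Counted by set, which is not a like measure, at least 1 member met one in 4 of the 30 sets. Besides chromosome 16, these were an 837 bp set on chromosomes 1 and 4 (score 116), a 394 bp set on chromosomes 4 and 13 (score 114) and a 912 bp set on chromosome 22 and Zv9_NA425 (score 111). In these 3 sets a single member met a Tbx6myc peak and the other did not, while on chromosome 16 both members did.

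Scaffold peaks were unevenly spread over their sequences. Of the 80 scaffolds with a wild-type peak, 46 held 1 and 18 held 2, and the 16 with 3 or more carried 76 of the 158 peaks. The 7 with 5 or more carried 47. Zv9_NA126 had 13, which covered 24.9% of the stretch up to its largest listed coordinate of 55445, with scores from 94.7 to 369. Zv9_NA621 had 7, with scores from 122 to 304. Zv9_NA343 had 6 over 18089 bp, with scores from 99.1 to 417, and Zv9_NA640 had 6 over 25075 bp. Zv9_NA29, Zv9_NA507 and Zv9_NA61 had 5 each, which covered 44.2, 24.7 and 17.3% of their listed stretches. For these and Zv9_NA126 the largest listed coordinate was the stop of a wild-type peak, so the shares of the whole scaffolds may be lower. Scores reached 266 on Zv9_NA29 and 305.5 on Zv9_NA507, but only 169 on Zv9_NA61.

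Of these 7 scaffolds, Zv9_NA621 had 5 Tbx6myc peaks, Zv9_NA126 had 3, Zv9_NA640 and Zv9_NA507 had 2 each, Zv9_NA343 and Zv9_NA61 had 1 each and Zv9_NA29 had none. Over all 80 scaffolds, 39 also held a Tbx6myc peak and 41 did not. The wild-type peaks on scaffolds without a Tbx6myc peak numbered 55. No scaffold held more than 6 Tbx6myc peaks.

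Gaps between neighbours were short on scaffolds and long on chromosomes. Another wild-type peak lay within 10 kb, edge to edge, of 99 scaffold peaks (62.7%, 54.9 to 69.8%) and of 30 chromosome peaks (12.5%, 8.90 to 17.3%). Within 1 kb the numbers were 27 and 16. The median gap to the nearest other peak was 2.63 kb for the 112 scaffold peaks that had one on their sequence and 1.40 Mb for the chromosome peaks. Short scaffolds allow no long gap, and the longest on one was 77.2 kb. On the chromosomes 143 peaks (59.6%) had no neighbour within 1 Mb, and the most isolated, at 46028813 to 46029918 of chromosome 14, was 20.6 Mb from its nearest. Tbx6myc peaks of the chromosomes had a neighbour of their own list within 10 kb in 27.3% of cases and a median gap of 44.3 kb, in a list with many more peaks. On scaffolds 44.5% of the Tbx6myc peaks had one, and their median gap was 4.69 kb. Shorter gaps on scaffolds were thus not particular to the wild-type list.

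Joining chromosome peaks within 10 kb gave 14 groups, of which 12 were pairs and 2 held 3 peaks. In 8 of the groups a gap was 1 kb or less. The closest pair, on chromosome 3 from 48097427 to 48099837, was separated by 24 bp and scored 135 and 252. The pairs on chromosomes 7 and 21 described above came next, each with a gap of 633 bp. They were followed by a pair on chromosome 23 from 10970187 to 10972493 with a gap of 718 bp and the 354 bp twins on chromosome 7. Of the groups of 3, one spanned 36382569 to 36390991 of chromosome 8 and scored between 97.1 and 145.5. The other spanned 14542631 to 14550916 of chromosome 2 and scored between 113 and 247. Scaffold peaks gave 31 such groups, 16 of them with 3 or more peaks and the largest with 8, on Zv9_NA126 from 41674 to 55445.

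At a wider scale, 4 windows of 1 Mb on chromosomes held 4 or more wild-type peaks. They were picked out after the positions had been seen. On chromosome 2, 5 peaks lay in 412 kb from 14138457 to 14550916, among them the strongest chromosome peak of the list. Of the 5, 4 were off the curves by more than 0.1 units and 3 by more than 0.2. A 769 kb stretch of chromosome 24, between 11733242 and 12502652, held 4 that scored 112 to 436. Neither stretch contained a Tbx6myc peak. Chromosome 17 held 5 in 904 kb from 4218340 to 5122466, all between scores of 94.8 and 141, and again no Tbx6myc peak lay there. Tbx6myc peaks averaged 2.82 per Mb over the chromosomes, so few would lie in any of these stretches. Chromosome 8 held 4 wild-type peaks in 45.2 kb from 36382569 to 36427720, together with 4 Tbx6myc peaks.

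Every numbered chromosome held at least 4 wild-type peaks. The mean was 0.179 per Mb of listed length, against 2.82 per Mb for Tbx6myc peaks. Density was highest on chromosome 25 (13 peaks, 0.338 per Mb) and lowest on chromosome 1 (4 peaks, 0.0665 per Mb). Chromosome 25 had the lowest density of Tbx6myc peaks, 2.31 per Mb. Chromosome 7 had the most wild-type peaks, 21 at 0.279 per Mb. Counts of 4 were also found on chromosomes 13 and 23. The longest stretch between neighbouring wild-type peaks was 36.9 Mb, on chromosome 5 from 1194034 to 38130318.

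The outermost parts of the chromosomes held a larger share of wild-type than of Tbx6myc peaks, a difference that was not tested. Within 10% of the length from either end lay 52 of 240 wild-type peaks (21.7%, 16.9 to 27.3%) and 562 of 3788 Tbx6myc peaks (14.8%). An even spread would put 20% of a list there, inside the wild-type interval and above the Tbx6myc share. Within 5%, where an even spread would put 10%, the shares were 13.75% (9.96 to 18.7%) and 7.73% (6.93 to 8.63%). Within 20% they were 35.0% (29.2 to 41.2%) and 31.1%, so the Tbx6myc share lay inside the wild-type interval. In the bins from 10 to 20% and from 80 to 90% of the length, wild-type shares were the lower, 6.25 and 7.08% against 8.50 and 7.73%. Length here means the largest coordinate that any peak of the 2 lists reached. On 4 chromosomes that coordinate was the stop of a wild-type peak, so 4 of the 52 peaks lay at the end by definition. Within 100 kb of the largest coordinate were 7 wild-type peaks, on chromosomes 1, 4, 12, 20 and 21, and another 2, on chromosomes 6 and 18, started in the first 100 kb. These 9 peaks included the widest peaks of chromosomes 4 and 18 and the peak of score 398 on chromosome 12.

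In the middle of the chromosomes the Tbx6myc shares were the larger. An even spread would put 10% of a list in each bin. The wild-type shares there were nearer to that than the Tbx6myc shares. The bins of 10% of the length between 40 and 70% held 9.17, 9.58 and 9.17% of the wild-type peaks and 13.7, 13.1 and 12.8% of the Tbx6myc peaks. The fullest bin for wild-type peaks was that from 20 to 30%, with 38 peaks (15.8%), of which 7 were on chromosome 2 and 7 on chromosome 24. Those 14 include the dense stretches of chromosomes 2 and 24 described above.

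**Figure D4:**
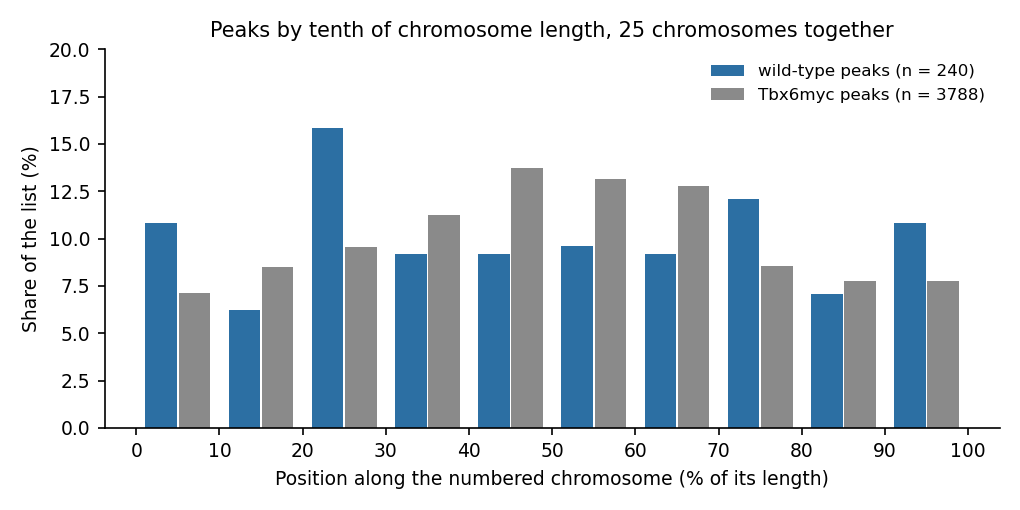
Share of each peak list (y axis, %) by bins of 10% of chromosome length (x axis, %), over the 25 numbered chromosomes together, for 240 wild-type peaks (blue) and 3788 Tbx6myc peaks (grey). Wild-type bars are the taller in the first and last bins, 10.8% in both against 7.10 and 7.73%, and the lower from 30 to 70%.

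Chromosome 4 carried 17 wild-type peaks, of which 10 (58.8%) lay beyond its midpoint at 30.6 Mb. Over all chromosomes 117 of 240 wild-type peaks (48.75%) lay beyond the midpoint, and on chromosome 3 it was 9 of 11. The long arm of chromosome 4 is known in zebrafish as heterochromatic and repeat-rich. The 10 peaks started at 36311020, 42802922, 44263663, 44265051, 46217092, 46717126, 50581838, 56408104, 60842803 and 61288563. Scores of the first 9 ran from 99.1 to 146, and the last, the 2508 bp peak at the end of the listed sequence, scored 227. Of the 10, 9 lay on a curve, the exception being that last peak. None of them met a Tbx6myc peak, in a stretch that held 4 of the 149 Tbx6myc peaks of chromosome 4 (2.68%). Over all chromosomes 4.17% of wild-type peaks met one, so few or none would be met among 10 at that share. In the part before the midpoint, 2 of 7 did, at 13032700 and 15276379.

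Of the 398 wild-type peaks 42 shared at least 1 bp with a Tbx6myc peak (10.6%, 7.90 to 13.96%). On scaffolds the count was 32 of 158 (20.3%, 14.7 to 27.2%) and on chromosomes 10 of 240 (4.17%, 2.28 to 7.50%). Strong peaks met one more often, with 29 of the 100 highest scores and 3 of the 189 peaks below a score of 110. The 42 peaks had a median score of 164 and a median width of 1094 bp, against 108 and 804.5 bp for the 356 others. Because more of the 42 were on scaffolds, and scaffold peaks were wider and higher-scoring, these medians do not separate overlap from location. Within the scaffolds the medians were 177 against 127 in score and 1205 against 928 bp in width. On the chromosomes they were 155 against 103 in score and 831 against 779 bp in width, with 10 peaks in the smaller group.

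The intervals of both lists differed in size where they met, and over the whole lists. The Tbx6myc intervals come from merged libraries and were as narrow as 6 bp, against 277 bp for the narrowest wild-type peak. The widths may thus not be like measures, and what the merging did to them was not tested. Median widths were 973 bp for wild-type and 534 bp for Tbx6myc peaks on scaffolds, and 781.5 and 482 bp on chromosomes. On scaffolds the wild-type peak was the wider in 24 cases and the narrower in 8, and on chromosomes the count was 5 each. The median difference in width, wild-type minus Tbx6myc, was 230.5 bp on scaffolds and 77 bp on chromosomes. A median of 69.7% of the wild-type interval and 89.8% of the Tbx6myc interval was shared. In 13 of the 42 cases the Tbx6myc interval lay wholly inside the wild-type one. The Tbx6myc interval at 28754 to 31259 of Zv9_NA621 met 2 wild-type peaks and is counted in both cases. The partners ranged from rank 16 to rank 3927 of the 3997 averaged Tbx6myc scores, and 34 of the 42 were in the higher-scoring part of that list when cut at its middle rank. Their median averaged score was 287, against 190 for all Tbx6myc peaks.

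**Figure D5:**
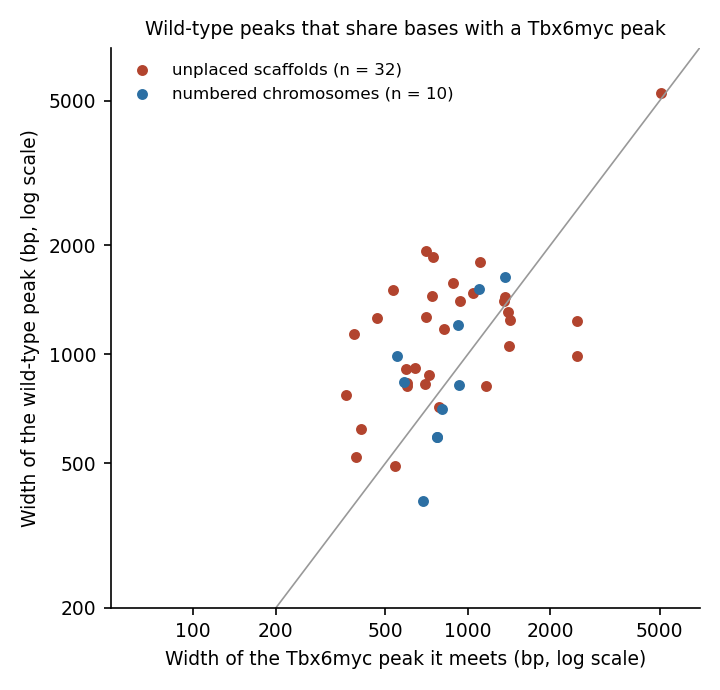
Width in bp of each wild-type peak that shares bases with a Tbx6myc peak (y axis) against the width of that Tbx6myc peak (x axis), both on log axes, for 32 peaks on unplaced scaffolds and 10 on numbered chromosomes. The line marks equal widths; 29 of 42 points lie above it.

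The 10 chromosome peaks that met a Tbx6myc peak were on 8 chromosomes. The strongest, at 49942556 to 49944188 of chromosome 12, met a 1372 bp Tbx6myc interval of rank 967. At 16751918 to 16752622 of chromosome 10, a peak of score 231 met one of rank 1796. The twins of chromosome 16 each met a 772 bp interval of rank 407, and those intervals were themselves equal in width and averaged score. On chromosome 14, at 21109532 to 21110738, a peak of score 157 met one of rank 2744, and on chromosome 17, at 40106544 to 40107368, a peak of score 153 lay wholly inside one of rank 207. The others scored under 120. They lay at 36382569 to 36384081 of chromosome 8 (score 118, partner of rank 1582), 15276379 to 15277215 and 13032700 to 13033093 of chromosome 4 (scores 116 and 114, partners of rank 1327 and 983) and 39811141 to 39812127 of chromosome 2 (score 111, partner of rank 3172).

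Of the 230 chromosome peaks that shared no base with a Tbx6myc peak, 2 had one within 1 kb, 18 within 10 kb and 80 within 100 kb. The median distance over all 240 chromosome peaks was 161 kb. Of the 126 such scaffold peaks, 55 lay on scaffolds without a Tbx6myc peak, so no distance exists for them. A Tbx6myc peak lay within 1 kb of 5, within 10 kb of 57 and within 100 kb of 71.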

How the data were processed

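Per the submitters' processing notes, the aligner was Bowtie and the genome build Zv9 (danRer7). Not given in the sources used here were the version of Bowtie, the peak caller, its threshold and its treatment of duplicate or multiply placed reads. The authors deposited 2 peak lists, each with positions, a width in bp and a score, which per the file headers is −log10 of a p-value multiplied by 10. The Tbx6myc score is an average, and the labels say that 2 ChIP libraries were merged. The input samples were not analysed here as peaks. Libraries were amplified for 15 cycles, per the labels' protocols. Positions were taken as 1-based.

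From these lists, distances were computed edge to edge, groups were joined within 10 kb, and an overlap was at least 1 bp. Shares carry 95% Wilson intervals and medians carry binomial order-statistic intervals. With 1 list per condition no test across conditions was made. Peaks were named by rules on score, width, ties, spacing and position, and the members, lists and rules were chosen with earlier results of these data known. Alternatives covered a score threshold, 1 peak per tied set, single sequences left out, distances and overlap. The curves of the score, their rate and floor of 450 bp, their tolerance of 0.1 units and the 1 Mb windows were chosen with the peaks already seen. No genome or annotation of Zv9 was used here, so peaks have no gene names or sequences. Distances, ties and curves were tested on simulated data. Python 3.11.15, SciPy 1.17.1, pandas 2.3.3 and statsmodels 0.14.6 were used.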

Additional observations from a re-analysis of the deposited data

How the results depend on the processing

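Of 40 alternatives to 10 results set out at the start, 28 left the value within its interval, or a count within 1.5 times. Leaving out single sequences or the repeats of tied sets removes few peaks, so counts could hardly move by 1.5 times there. The number of 28 is thus no measure of robustness. A threshold at the median score, which keeps 199 peaks, moved 8 results. The scaffold share became 53.8%, the median widths 1163 bp on scaffolds and 880.5 bp on chromosomes, and the median scores 166 and 131. With these peaks alone, 61 scaffold peaks and 17 chromosome peaks had a neighbour within 10 kb, and 20 peaks were tied. These are counts out of fewer peaks, so their fall does not show a lower share. Within 1 kb, 27 scaffold peaks and 16 chromosome peaks had a neighbour, and the share near chromosome ends was 13.75% within 5% and 35.0% within 20% of the length. The threshold selects strong peaks, which lay more often on scaffolds and were wider, and it lowers counts by keeping fewer peaks. The other changes follow from another distance. With chromosome lengths from the Tbx6myc list the share within 10% was 24.2%, but wild-type peaks past the last Tbx6myc peak then count as lying at the end, so this does not remove the peaks that are there by definition. Of 8 alternatives added after the data had been seen, 6 left the value within its interval, or a count within 1.5 times. The count on a curve was 158 of the 199 peaks kept by the score threshold, and 289 of all peaks with a tolerance of 0.05. The even share was 86.2% with a tolerance of 0.05. This rise does not show a stronger alternation, because it partly follows from which peaks of 450 bp or less stayed. The 22 chromosome peaks of score 101.19 (n = 10) lay 0.0487 units off their curve and stayed. The 8 of score 114.06 (n = 11) and 3 of score 140.82 (n = 13), at 0.0575 and 0.0651 units, were lost. So was 1 of even n, with a score of 127.28. With 1 peak of each tied set the even share was 79.2%. No paired analysis was possible because the lists stand for 1 wild-type library and for merged Tbx6myc libraries. No library could be left out for the same reason. Depth is unknown, so intervals under the caller's threshold were not seen.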
